A study of Homo sapiens with 18 samples.

Results

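Plasma cells arise from B cells when one set of transcription factors is exchanged for another, and 10 genes of that exchange were followed here in multiple myeloma cell lines: IRF4, PRDM1, PAX5, BACH2, BCL6, POU2AF1, IKZF1, IKZF3, MEF2C and SPIB. All 10 were matched by symbol to the Ensembl identifiers of the count tables, which list 62703 genes. PAX5 holds B cell identity, and BCL6 and BACH2 are repressors that keep activated B cells from becoming plasma cells, BACH2 in part by repressing PRDM1. PRDM1, which encodes Blimp-1, silences the B cell programme in turn, and IRF4 drives plasma cell differentiation and is needed by myeloma cells. IKZF1 and IKZF3 encode Ikaros and Aiolos, the zinc finger proteins that cereblon degrades when it is bound by lenalidomide or pomalidomide.

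RNA was sequenced from 3 established human multiple myeloma lines, AMO1, LP1 and NCI-H929, the last of which the labels call H929. Cells of each line took up, without a transfection reagent, either the LNA-gapmeR g#N1_E against NEAT1 (label gN1E) or the scrambled gapmeR g#SCR (label SCR). The protocol and the study's methods give 48 h of treatment, which is used here, while the design text of the series gives 48 days. A gapmeR is an antisense oligonucleotide that directs RNase H to the RNA it pairs with, and NEAT1 is the long non-coding RNA around which nuclear paraspeckles form. Each line and gapmeR had 3 libraries, 18 in all, and the sources used here do not say whether they came from separate cultures, so p-values measure the spread between these libraries.

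The total count per library ran from 28061606 to 69937229. In AMO1 the libraries labelled gN1E were shallower (28061606, 29663430 and 49784737 counts) than those labelled SCR (53227560, 56549069 and 66142827 counts), in the libraries labelled LP1 they were on the whole shallower too (44091209 to 57247024 against 56542997 to 69937229 counts), and in those labelled H929 the gN1E libraries were on the whole deeper (52856172 to 59302536 against 34710995 to 54387667 counts). Levels of 1 gene across libraries are given as CPM, which scales each count to its TMM-adjusted library size, and levels of different genes are compared as RPKM, which is CPM divided by the exon length in kilobases. In bulk RNA, fewer cells with a transcript and less of it in each cell cannot be told apart.

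The library names inside the count tables go against the sample labels. All 18 exchange SCR with gN1E, and 12 also exchange H929 with LP1. Libraries were grouped and named by their labels, and each line name and each gN1E minus SCR direction below depends on those labels. A direction given with or against NEAT1 rests on NEAT1 as measured in the same libraries. NEAT1 was high in the libraries that carry the gN1E label, although that gapmeR is meant to lower it. In the levels of some members, the libraries labelled H929 were close to AMO1 and apart from those labelled LP1, as for SPIB (12.8, 12.8 and 0.255 CPM on average in AMO1 and under the H929 and LP1 labels), but not of all, as for IKZF1 (103, 129 and 159.6 CPM). In AMO1 NEAT1 stood at 473, 553 and 517 CPM under the gN1E label and at 75.7, 78.8 and 90.8 CPM under the SCR label. In the libraries labelled H929 it was 554, 464 and 542 CPM under gN1E and 79.8, 72.7 and 79.2 CPM under SCR, and in those labelled LP1 656, 667 and 829 CPM against 135, 173 and 189 CPM. The labels did not overlap in any of the 3 lines. The log2 fold change of NEAT1, gN1E minus SCR, was 2.66 in AMO1 (standard error 0.074, edgeR adjusted p = 5.1e-13), 2.74 under the H929 label (standard error 0.068, edgeR adjusted p = 3.11e-14) and 2.14 under the LP1 label (standard error 0.19, edgeR adjusted p = 0.0269). Under the LP1 label its edgeR adjusted p was 0.176 without SCR replicate B and 0.111 without gN1E replicate A. It was 0.0886 without gN1E replicate B and 0.0578 without gN1E replicate D. The call was lost in these 4 settings and kept in 12 others. Among the 12 were limma-voom (adjusted p = 3.71e-08) and DESeq2 (adjusted p = 3.69e-26).

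Markers of plasma cells were high in all libraries and markers of B cells low. Of 9 plasma cell markers, all had reads in every library, with a summed level from 15760 to 18220 CPM in AMO1, from 17930 to 21290 CPM under the H929 label and from 11210 to 12020 CPM under the LP1 label. SDC1, the surface proteoglycan CD138, was the most abundant of them in AMO1 and under the H929 label, and JCHAIN, the joining chain of secreted immunoglobulin, under the LP1 label. Of the B cell markers, CD79A was the most abundant in AMO1 and under the H929 label, at no more than 1.07 CPM in any library there, and PAX5 under the LP1 label, at no more than 1.38 CPM. CD22 had 0 counts in every AMO1 and H929-labelled library, and MS4A1 had 0 counts in every LP1-labelled library. The 5 T cell markers summed to between 9.91 and 29.8 CPM and were led by CD3E in all 18 libraries. The myeloid sum was at most 0.632 CPM in AMO1 and under the H929 label and from 3.58 to 9.60 CPM under the LP1 label, where CSF1R led it. Some sums differed by gapmeR label without overlap, and not all of them are given. The B cell marker sum under the LP1 label is left out, because it includes an item withheld for evaluation. Plasma cell markers under the H929 label, where BACH2 and SPIB passed below, had 20090 to 21290 CPM (gN1E) and 17930 to 18920 CPM (SCR). Under the LP1 label there were 3.58 to 6.15 CPM (gN1E) and 7.03 to 9.60 CPM (SCR) for myeloid markers and 10.2 to 13.7 CPM (gN1E) and 14.0 to 15.1 CPM (SCR) for T cell markers. The part of these markers in the results was not tested. Stromal markers, led by COL1A1, reached 1.74 CPM and erythroid markers, led by HBA1, 8.43 CPM.

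IRF4 was the most abundant of the 10 factors in each line. IRF4 (ENSG00000137265.16, hg38 chromosome 6 from 391739 to 411443) had 250.3 ± 11.4 RPKM in AMO1, 269.8 ± 9.30 RPKM under the H929 label and 342 ± 17.3 RPKM under the LP1 label (SD, n = 6 libraries of both gapmeR labels). These levels exceeded those of 99.2% of the 14733 genes with a mean of at least 1 CPM in AMO1, 99.3% of 15079 such genes under the H929 label and 99.4% of 14789 under the LP1 label. POU2AF1 (ENSG00000110777.12, chromosome 11 from 111352255 to 111455630), the B cell coactivator that binds octamer factors, came next with 144 ± 9.44, 137 ± 2.77 and 122 ± 4.86 RPKM in AMO1 and under the H929 and LP1 labels. PRDM1 (ENSG00000057657.17, chromosome 6 from 105993463 to 106109939) had 33.9 ± 2.01 and 38.2 ± 1.86 RPKM in AMO1 and under the H929 label, and 114 ± 2.54 RPKM under the LP1 label.

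The Ikaros family members differed from each other in the same order in each line. IKZF3 (ENSG00000161405.17, chromosome 17 from 39757718 to 39864312) had 44.1 ± 0.824 RPKM in AMO1, 37.6 ± 0.725 RPKM under the H929 label and 23.9 ± 0.951 RPKM under the LP1 label. IKZF1 (ENSG00000185811.21, chromosome 7 from 50304068 to 50405101) had 9.40 ± 0.318, 11.8 ± 0.621 and 14.6 ± 0.514 RPKM in the same order of lines. The lowest IKZF3 library lay above the highest IKZF1 library in each line. MEF2C (ENSG00000081189.17, chromosome 5 from 88717117 to 88904257), a MADS-box factor that serves B cell receptor signalling, had 21.0 ± 1.82 RPKM in AMO1, 20.4 ± 1.23 RPKM under the H929 label and 39.8 ± 1.79 RPKM under the LP1 label.

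The factors of the earlier B cell stages were lower. BACH2 (ENSG00000112182.16, chromosome 6 from 89926528 to 90296843) had nearly the same level in each line, with 4.998 ± 0.337, 4.93 ± 0.424 and 5.21 ± 0.245 RPKM, close to the middle of the genes above 1 CPM (51.4, 52.3 and 52.6% of them were lower). SPIB (ENSG00000269404.7, chromosome 19 from 50418938 to 50431314), an ETS factor related to PU.1, had 2.98 ± 0.391 RPKM in AMO1 and 2.99 ± 0.461 RPKM under the H929 label, but 0.0595 ± 0.0169 RPKM under the LP1 label. It shares its strand with an overlapping gene of the annotation (ENSG00000142539), so reads in shared exons may be missing from its counts. BCL6 (ENSG00000113916.18, chromosome 3 from 187721377 to 187745725) was near the lower limit in each line, at 0.0645 ± 0.0172, 0.0659 ± 0.0226 and 0.0954 ± 0.0293 RPKM, from 6 to 37 reads a library. PAX5 (ENSG00000196092.14, chromosome 9 from 36833269 to 37034268) had 0 reads in the 6 AMO1 libraries, 5 reads in all over the 6 libraries labelled H929 and 43 to 80 reads in each library labelled LP1.

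**Figure D1:**
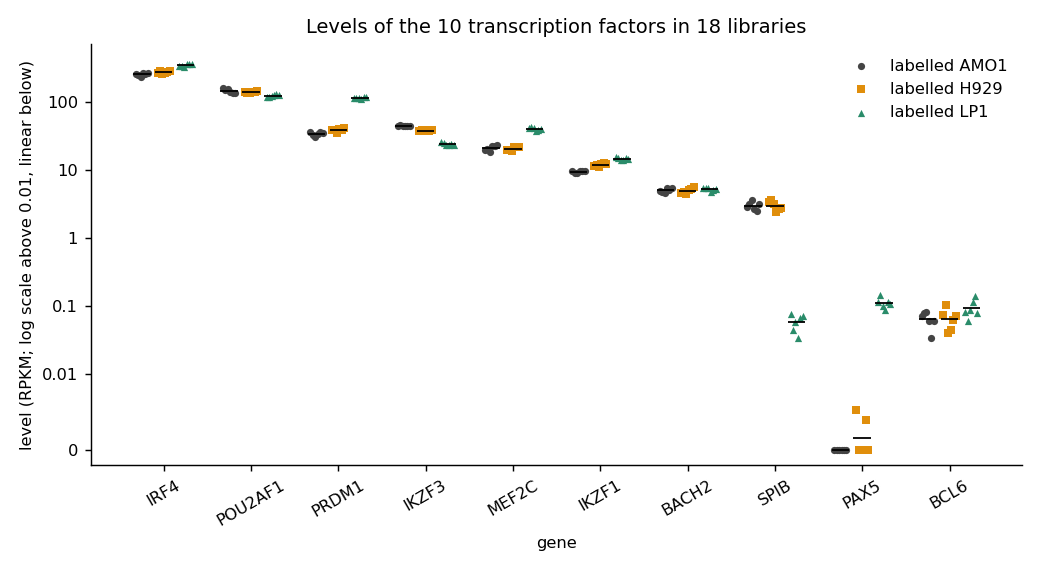
Levels of the 10 factors as RPKM on the vertical axis (log scale above 0.01, linear below) for each gene on the horizontal axis; each point is 1 library, each black line the mean of 6 libraries of a line label. SPIB stands near 3 RPKM in AMO1 and under the H929 label and near 0.06 RPKM under the LP1 label, PRDM1 is highest under the LP1 label, and PAX5 is at 0 in AMO1.

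Neighbours in this order were mostly separated. In AMO1 the order was IRF4, POU2AF1, IKZF3, PRDM1, MEF2C, IKZF1, BACH2, SPIB, BCL6 and PAX5, with no overlap of libraries between any neighbours. Under the H929 label the order was the same except that PRDM1 stood before IKZF3, with overlapping libraries. Under the LP1 label POU2AF1 and PRDM1 overlapped, MEF2C lay above IKZF3, and PAX5, BCL6 and SPIB closed the order with overlapping libraries from one to the next.

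Differences between the lines were tested in a joint edgeR fit of the 18 libraries over 26436 genes, with line means over both gapmeR labels, and a member was counted when its adjusted p was under 0.05 and its level differed at least 2-fold (an absolute log2 fold change of at least 1). Between AMO1 and the libraries labelled LP1, 3 of 10 members passed, where 41.5% of all genes did. The same 3 passed between the libraries labelled H929 and LP1, where 38.1% of all genes did. PRDM1 was higher under the LP1 label and SPIB lower. The other member counted was PAX5, higher under the LP1 label. PAX5 reached the read filter only through the libraries labelled LP1. Its direction was thus fixed by the filter, and its call is not read as a test.

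SPIB was far lower under the LP1 label than elsewhere. Its levels were 12.4, 13.4 and 15.4 CPM (SCR) and 11.3, 10.8 and 13.3 CPM (gN1E) in AMO1, and 14.3, 15.4 and 13.6 CPM (SCR) and 10.2, 11.3 and 11.9 CPM (gN1E) under the H929 label. Each library labelled LP1 was between 0.148 and 0.333 CPM, from 8 to 21 reads. No library of AMO1 or of the H929 label came near that range. SPIB was 50.1-fold higher in AMO1 than under the LP1 label (log2 difference 5.65, standard error 0.12, edgeR adjusted p = 3.6e-29) and 50.04-fold higher under the H929 label (5.65 on the log2 scale, standard error 0.12, edgeR adjusted p = 4.06e-29).

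PRDM1 went the other way. Its lowest, median and highest levels were 208, 230.1 and 242 CPM in AMO1, 235, 261 and 272 CPM under the H929 label and 746, 770.0 and 794 CPM under the LP1 label. The 6 libraries labelled LP1 were above all 12 others. The level under the LP1 label was 3.36-fold that of AMO1 (log2 difference AMO1 minus LP1 -1.75, standard error 0.038, edgeR adjusted p = 3.31e-29) and 2.98-fold that under the H929 label (-1.58, standard error 0.038, edgeR adjusted p = 7.31e-28).

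PAX5, at 70, 80 and 50 reads in the SCR libraries and 46, 45 and 43 reads in the gN1E libraries labelled LP1, was low there too, at 0.853 to 1.38 CPM. The 0 reads of AMO1 over a total of 283429229 counts allow a level of up to 0.0106 CPM (3 counts over the 6 libraries), so PAX5 was at least 93.5-fold higher under the LP1 label. Against the libraries labelled H929, where 2 of 6 libraries had reads (3 and 2), the ratio of pooled counts was 60.6 (95% exact interval 25.7 to 187.8, counting error only). PAX5 reached the read filter only through the libraries labelled LP1, so it is described by its reads and ratios. The counts of members between lines include it, and its place in them rests on those same reads.

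**Figure D2:**
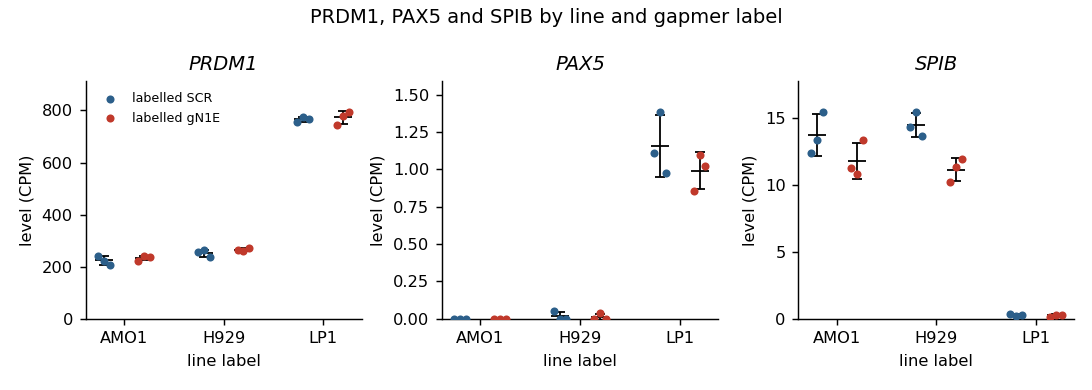
CPM of PRDM1, PAX5 and SPIB on the vertical axes by line label on the horizontal axes; points are libraries (blue labelled SCR, red labelled gN1E), black bars the mean and SD of 3. In each panel the 6 libraries labelled LP1 lie apart from the 12 others, above them for PRDM1 and PAX5 and below them for SPIB.

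The start regions of these 3 genes are shown because they are the members that separated the lines by at least 2-fold. RefSeq start windows (GRCh38.p14, 250 bases before and 50 after the start) were found for 8 of the 10 factors (not POU2AF1 and IKZF3), in 18 windows, and those of SPIB (plus strand, chr19:50418688-50418987), PAX5 (minus strand, chr9:37034219-37034518) and PRDM1 (plus strand, chr6:106086086-106086385 and chr6:106098691-106098990) follow, 5′ to 3′, with motif matches in capitals.
SPIB: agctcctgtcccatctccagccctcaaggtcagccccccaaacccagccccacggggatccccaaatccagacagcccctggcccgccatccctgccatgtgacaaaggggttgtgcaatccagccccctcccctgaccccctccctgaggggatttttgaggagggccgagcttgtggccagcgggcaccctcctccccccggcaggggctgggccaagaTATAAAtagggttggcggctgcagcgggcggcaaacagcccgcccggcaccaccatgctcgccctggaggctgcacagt
PAX5: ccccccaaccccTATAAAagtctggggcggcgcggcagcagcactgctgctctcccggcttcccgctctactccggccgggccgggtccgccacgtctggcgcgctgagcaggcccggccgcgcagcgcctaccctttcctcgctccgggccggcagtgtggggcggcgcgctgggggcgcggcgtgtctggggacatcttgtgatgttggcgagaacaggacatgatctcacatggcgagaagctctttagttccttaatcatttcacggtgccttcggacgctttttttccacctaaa
PRDM1, first start: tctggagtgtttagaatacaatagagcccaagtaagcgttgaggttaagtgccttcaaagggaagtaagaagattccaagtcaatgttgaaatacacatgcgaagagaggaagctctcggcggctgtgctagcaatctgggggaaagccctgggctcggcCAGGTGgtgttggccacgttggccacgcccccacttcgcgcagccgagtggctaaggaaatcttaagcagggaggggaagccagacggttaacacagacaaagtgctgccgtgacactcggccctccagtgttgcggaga
PRDM1, second start: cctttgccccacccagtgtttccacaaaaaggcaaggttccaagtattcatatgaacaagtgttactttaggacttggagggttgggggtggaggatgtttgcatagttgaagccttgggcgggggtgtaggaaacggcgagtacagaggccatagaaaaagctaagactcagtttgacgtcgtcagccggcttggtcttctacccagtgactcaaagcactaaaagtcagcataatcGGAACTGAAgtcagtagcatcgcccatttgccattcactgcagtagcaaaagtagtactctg
The motifs searched on both strands were the octamer ATTTGCAT (in 1.77% of 35116 windows of the same length), the ETS-IRF composite element GGAANNGAA (7.79%), the PRDM1 core AGTGAAAG (1.34%), the element TTCNNNGAA shared by BCL6 and STAT factors (7.66%), the Ikaros core TGGGAA (24.0%), the E-box CAGGTG (20.6%) and the TATA box TATAAA (11.5%). SPIB held a TATA box 29 bases before its start and PAX5 one 238 bases before. PRDM1 held an E-box 90 bases before the first start and GGAACTGAA, a match to the ETS-IRF element, 12 bases before the second. Among the windows not printed, the upstream start of BCL6 held 4 matches to TTCNNNGAA and 1 of the 7 windows of MEF2C held the octamer. A match describes letters in a window and not a bound site.

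Smaller differences concerned the Ikaros factors, IRF4 and MEF2C. At an adjusted p under 0.05 of any size, 9 of 10 members differed between AMO1 and the libraries labelled LP1, against 75.9% of all genes, and 8 of 10 between the libraries labelled H929 and LP1, against 74.6%, PAX5 included in both. IKZF3 was lower under the LP1 label than in AMO1 by a ratio of 0.542 (log2 difference AMO1 minus LP1 0.88, standard error 0.032), and IKZF1 was higher (1.56-fold, log2 difference -0.64, standard error 0.033). MEF2C was 1.90-fold higher under the LP1 label than in AMO1 (-0.92, standard error 0.033) and 1.95-fold higher than under the H929 label (-0.96, standard error 0.033, edgeR adjusted p = 1.31e-23). IRF4 was 1.37-fold higher under the LP1 label than in AMO1 (-0.45, standard error 0.033), and POU2AF1 was lower (0.24, standard error 0.031). With DESeq2 or RLE size factors, MEF2C also reached 2-fold between the H929 and LP1 labels, and IKZF3 did between AMO1 and the LP1 label when library totals alone set the scale. That scaling moved the median log2 difference of all genes from 0.022 to 0.20 between AMO1 and the LP1 label and from 0.053 to 0.24 between the H929 and LP1 labels.

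AMO1 and the libraries labelled H929 were close to each other. With edgeR, 0 of 10 members differed at least 2-fold between them, where 10.2% of all genes did. With the same 2-fold cut, 0 members and 2721 of all genes passed with limma-voom, and 0 members and 2683 of all genes with DESeq2. At that cut and an unadjusted p under 0.05, 1 member passed. That 1 was PAX5, whose 0 and 5 reads are too few to compare these lines, so nothing is read from it. At an adjusted p under 0.05 of any size, 4 of 10 members differed, against 44.4% of all genes. IKZF1 was 1.26-fold higher under the H929 label (log2 difference AMO1 minus H929 -0.33, standard error 0.033, edgeR adjusted p = 4.47e-10), IKZF3 was 1.17-fold higher in AMO1 (0.23, standard error 0.032, edgeR adjusted p = 2.77e-07), and PRDM1 and IRF4 were 1.13-fold and 1.08-fold higher under the H929 label.

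The gapmeR labels were compared within each line to see how the factors differed along with NEAT1. An exact permutation test of 3 against 3 libraries cannot give a p below 0.1, so the tests of single genes rest on edgeR's model of the counts, its quasi-likelihood test with Benjamini-Hochberg adjustment over all genes. PAX5 was below the filter of at least 10 reads in at least 1 of 6 libraries in AMO1 and under the H929 label, which left 9 members tested there and 10 under the LP1 label. In AMO1, 1 of 9 members passed an adjusted p of 0.05, where 2.06% of all genes did, and 2 of 9 passed with the replicate letter as a block, where 1394 of 22933 genes did in place of 473. Under the H929 label 2 of 9 passed, where 5.47% of all genes did, and under the LP1 label 0 of 10, where 1.43% did. Under the LP1 label 2 members, IRF4 and POU2AF1, had an unadjusted p under 0.05, as did 3018 of 23165 genes. With limma-voom 1 member and 262 of all genes passed there, and with DESeq2 1 member and 512 of all genes. The median log2 fold change of the tested members was 0.061 in AMO1, 0.034 under the H929 label and -0.036 under the LP1 label, against -0.016, -0.0096 and -0.0012 for all genes tested. The gN1E and SCR libraries did not overlap for 6 of the 9 members tested in AMO1 (17.7% of all genes tested), 5 of 9 under the H929 label (21.7%) and 4 of 10 under the LP1 label (18.1%).

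MEF2C rose with NEAT1 in AMO1. Its levels were 259.7, 265 and 271 CPM in the libraries labelled gN1E and 230.2, 240.2 and 217 CPM in those labelled SCR. All gN1E libraries were above all SCR libraries, by 1.16-fold on average (log2 fold change 0.21, standard error 0.053, 95% interval 0.10 to 0.33, edgeR adjusted p = 0.0379). With the replicate letter as a block the edgeR adjusted p was 0.000816. Its edgeR adjusted p rose to 0.23 without SCR replicate D, 0.144 without gN1E replicate C and 0.263 without gN1E replicate D, and to 0.124 with library totals alone as the scale. MEF2C spans 187.1 kb, and with each library's trend over genomic span removed its log2 fold change was 0.14 (edgeR adjusted p = 0.182, or 0.0405 with the block as well).

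Under the other labels MEF2C did not pass. Under the H929 label it was 257, 250.1 and 253 CPM in the gN1E libraries and 232, 227 and 223 CPM in the SCR libraries, again without overlap (log2 fold change 0.14, standard error 0.046, edgeR adjusted p = 0.0703), and it passed with DESeq2 (adjusted p = 0.022). Under the LP1 label the order was opposite and also without overlap, with 436, 456 and 461 CPM under gN1E and 481, 494 and 481 CPM under SCR (log2 fold change -0.08, standard error 0.046, edgeR adjusted p = 0.464).

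BACH2 rose with NEAT1 under the H929 label. It had 55.0, 56.5 and 60.7 CPM in the libraries labelled gN1E and 49.9, 51.2 and 48.5 CPM in those labelled SCR. The labels did not overlap, and the log2 fold change was 0.19 (standard error 0.054, 95% interval 0.080 to 0.30, edgeR adjusted p = 0.0328). The call was lost with limma-voom (adjusted p = 0.0564), with library size only (edgeR adjusted p = 0.147), with the replicate letter as a block (edgeR adjusted p = 0.0803, or 0.502 with the span offset as well), and without SCR replicate A (0.115), SCR replicate C (0.0822), gN1E replicate B (0.0771) or gN1E replicate C (0.165). BACH2 is the longest of the factors, at 370.3 kb, and with the trend over genomic span removed its log2 fold change was 0.088 (edgeR adjusted p = 0.41). In AMO1 it had 58.3, 55.4 and 58.6 CPM under gN1E and 52.7, 50.8 and 50.2 CPM under SCR, likewise without overlap (log2 fold change 0.17, standard error 0.061, edgeR adjusted p = 0.23). Under the LP1 label it had 51.6, 55.7 and 57.4 CPM under gN1E and 58.0, 58.7 and 58.2 CPM under SCR (log2 fold change -0.07, standard error 0.054, edgeR adjusted p = 0.657).

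SPIB fell against NEAT1 under the H929 label, from 14.4 ± 0.896 CPM in the SCR libraries to 11.1 ± 0.843 CPM in the gN1E libraries (SD, n = 3). The labels did not overlap (log2 fold change -0.39, standard error 0.080, 95% interval -0.55 to -0.23, edgeR adjusted p = 0.00228). This call held in all 16 other settings run for it, with adjusted p-values from 0.00022 to 0.032. In AMO1 the SPIB libraries of the labels overlapped, at 11.3, 10.8 and 13.3 CPM under gN1E and 12.4, 13.4 and 15.4 CPM under SCR (log2 fold change -0.22, standard error 0.10, edgeR adjusted p = 0.416). At 8 to 21 reads a library under the LP1 label, a change of this size was not detectable there (log2 fold change -0.06, 95% interval -1.03 to 0.90).

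**Figure D3:**
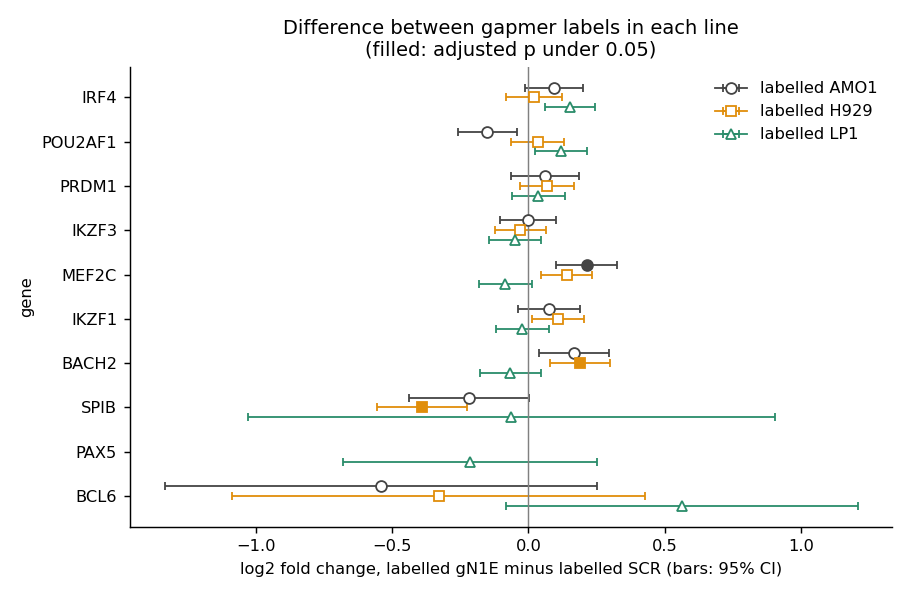
Log2 fold change of each member, libraries labelled gN1E minus SCR, on the horizontal axis, with 95% intervals; symbols mark the line labels and filled symbols an adjusted p under 0.05. MEF2C in AMO1 (0.21), BACH2 (0.19) and SPIB (-0.39) under the H929 label are filled, and the intervals of SPIB, PAX5 and BCL6 at low counts are wide.

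POU2AF1 and IRF4, the most abundant factors, did not pass in any line, but each did in other settings. POU2AF1 in AMO1 had 979, 948 and 938 CPM under gN1E and 1109, 1022 and 1055 CPM under SCR. All gN1E libraries were below all SCR libraries (log2 fold change -0.15, standard error 0.052, edgeR adjusted p = 0.192), and with the replicate letter as a block it passed (edgeR adjusted p = 0.0219). The order of POU2AF1 was opposite under the LP1 label, with 880.0, 892 and 873 CPM under gN1E above 809.8, 819 and 844 CPM under SCR (log2 fold change 0.12, standard error 0.046, edgeR adjusted p = 0.249). Under the H929 label the gN1E libraries of POU2AF1 (983, 962 and 988 CPM) were also above the SCR libraries (953, 942 and 944 CPM; log2 fold change 0.034, standard error 0.048, edgeR adjusted p = 0.781). IRF4 under the LP1 label had 2144, 2115 and 2143 CPM under gN1E and 1963, 1959 and 1924 CPM under SCR, without overlap. Its log2 fold change was 0.15 (standard error 0.045, edgeR adjusted p = 0.099), and it passed with limma-voom (adjusted p = 0.0267), DESeq2 (adjusted p = 0.0166) and library size only (edgeR adjusted p = 0.0452). In AMO1 and under the H929 label the log2 fold changes of IRF4 were 0.09 and 0.020, with edgeR adjusted p-values of 0.489 and 0.888.

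PRDM1, IKZF1 and IKZF3 moved little. The log2 fold change of PRDM1 was 0.06 in AMO1, 0.07 under the H929 label and 0.04 under the LP1 label, with the highest bound of its 95% intervals at 0.19. IKZF3 had log2 fold changes of -0.0014, -0.03 and -0.05 in the same order, and its 95% intervals lay between -0.14 and 0.10. IKZF1 had 0.07, 0.11 and -0.02, with intervals from -0.12 to 0.21. Its gN1E libraries lay above its SCR libraries without overlap in AMO1 and under the H929 label (edgeR adjusted p = 0.636 and 0.205). The scarce factors could not be read as closely, since BCL6 had log2 fold changes of -0.54, -0.33 and 0.56 with intervals from -1.33 to 1.21, and PAX5, tested under the LP1 label, one of -0.21 with an interval from -0.68 to 0.25.

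**Figure D4:**
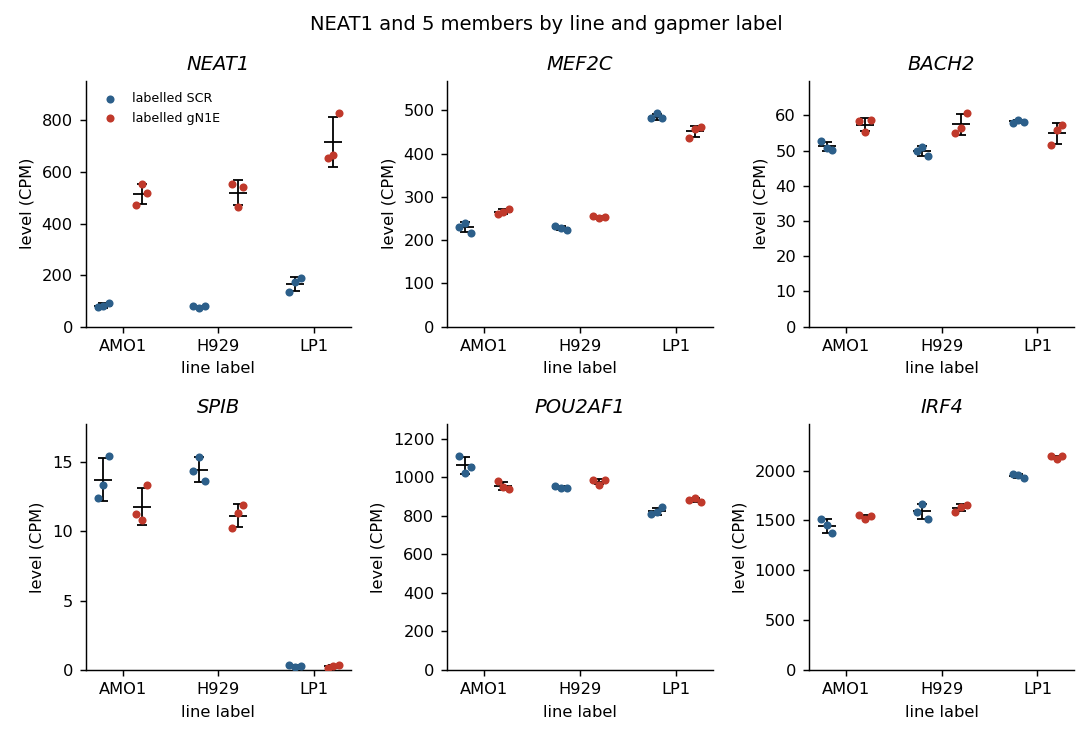
CPM of NEAT1, MEF2C, BACH2, SPIB, POU2AF1 and IRF4 on the vertical axes by line label on the horizontal axes; points are libraries (blue labelled SCR, red labelled gN1E), black bars the mean and SD of 3. NEAT1 is higher in each library labelled gN1E than in those labelled SCR of its line, while the members differ by far less, for example 265 ± 5.80 against 229 ± 11.6 CPM for MEF2C in AMO1.

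Whether a label difference was itself different between lines was tested as an interaction in the joint fit. Between AMO1 and the LP1 label, 2 of 10 members passed, where 0.741% of all genes did. MEF2C had a difference of label differences, AMO1 minus LP1, of 0.32 on the log2 scale (standard error 0.065, 95% interval 0.18 to 0.45, edgeR adjusted p = 0.00854). It was kept in 25 of 26 other settings and lost with library size only (edgeR adjusted p = 0.137). POU2AF1 had -0.25 (standard error 0.062, 95% interval -0.38 to -0.12, edgeR adjusted p = 0.0477). The call for POU2AF1 was lost with RLE size factors (edgeR adjusted p = 0.0666) and with any 1 library left out except AMO1 SCR replicate C, AMO1 gN1E replicate A, LP1 SCR replicate D and H929 SCR replicate C, with adjusted p-values from 0.000892 to 0.144 over all settings.

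Between the H929 and LP1 labels, 1 of 10 members passed, where 0.874% of all genes did. This was MEF2C, with 0.26 (standard error 0.065, 95% interval 0.13 to 0.39, edgeR adjusted p = 0.0437). It passed in 10 of 26 other settings, which among the libraries left out were those without AMO1 SCR replicate A, C or D, LP1 SCR replicate D or LP1 gN1E replicate D, and its edgeR or DESeq2 adjusted p ran from 0.00283 to 0.45. BACH2 had 0.25 for AMO1 minus LP1 (standard error 0.077, edgeR adjusted p = 0.144) and 0.29 for H929 minus LP1 (standard error 0.076, edgeR adjusted p = 0.0637), and both passed with DESeq2 (adjusted p = 0.0221 and 0.0164). The value for H929 minus LP1 also passed without LP1 gN1E replicate D (edgeR adjusted p = 0.0448). Between AMO1 and the H929 label 0 of 10 members and 0.0% of all genes passed with edgeR (1 member, POU2AF1, and 1771 of 26436 genes at an unadjusted p under 0.05, 0 members with limma-voom or DESeq2). So the call of MEF2C in AMO1 and the calls of BACH2 and SPIB under the H929 label were not shown to differ between those lines, with differences AMO1 minus H929 of 0.06 for MEF2C (95% interval -0.08 to 0.19), -0.04 for BACH2 (-0.19 to 0.12) and 0.16 for SPIB (-0.15 to 0.46). The interaction of NEAT1 was 0.54 for AMO1 minus LP1 (standard error 0.18, edgeR adjusted p = 0.278) and 0.64 for H929 minus LP1 (standard error 0.18, edgeR adjusted p = 0.197), and the latter passed with DESeq2 (adjusted p = 0.0293) and without LP1 SCR replicate A (edgeR adjusted p = 0.0277).

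The joint fit above leaves out the replicate letter, so the interactions were run again with it as a block, once in AMO1 and once within each line, both added after the data were seen. MEF2C (AMO1 minus LP1) had edgeR adjusted p-values of 0.00585 and 0.00612, POU2AF1 (AMO1 minus LP1) 0.0341 and 0.0209, and MEF2C (H929 minus LP1) 0.0283 and 0.0235. BACH2 (H929 minus LP1) passed with the block in AMO1 (edgeR adjusted p = 0.0403) and not with it in each line (0.053). For AMO1 minus H929, 0 of 10 members passed with either block (edgeR adjusted p from 0.825 to 0.975 for MEF2C, BACH2 and SPIB). NEAT1 passed with the block within each line (edgeR adjusted p = 0.00179 for AMO1 minus LP1 and 0.000283 for H929 minus LP1) and not with the block in AMO1 (0.28 and 0.185).

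Genes that work with the factors were read from lists, whose counts stand beside 2.06% of all genes in AMO1, 5.47% under the H929 label and 1.43% under the LP1 label. Their counts with the block in AMO1 stand beside the 1394 of 22933 genes called with it. Counts at an unadjusted p under 0.05 stand beside 2803 of 22933 genes in AMO1 and 3018 of 23165 under the LP1 label. Counts with limma-voom stand beside 384, 998 and 262 genes called in AMO1 and under the H929 and LP1 labels. Those with DESeq2 stand beside 619, 1317 and 512 genes. Among 29 partner transcription factors of the B lineage, 1 of 27 tested rose in AMO1 (4 changed with the replicate letter as a block), 3 rose and 2 fell of 28 under the H929 label, and 0 of 28 changed under the LP1 label (8 at an unadjusted p under 0.05, against those 3018 of 23165 genes, 0 with limma-voom and 0 with DESeq2). The 5 calls under the H929 label were 4 with limma-voom and 8 with DESeq2, and 2 to 6 with 1 library left out, against 0 to 2 in AMO1 and 0 to 2 under the LP1 label. The median log2 fold change was 0.016, 0.043 and 0.019. FOXO1, a forkhead factor of B cell development, rose in AMO1 (0.24, standard error 0.061, edgeR adjusted p = 0.0473, lost in 9 of 16 other settings) and under the H929 label (0.25, standard error 0.056, edgeR adjusted p = 0.00489, lost in 1). MYC rose under the H929 label from 870.3 ± 43.7 to 1090 ± 28.2 CPM (0.31, standard error 0.051, edgeR adjusted p = 0.000124, kept in all 16 other settings), and so did TCF3, which encodes the E2A proteins (0.23, standard error 0.048, lost in 1 of 16). ID2, an inhibitor of E proteins, fell there (-0.26, standard error 0.069, lost in 5), as did REL (-0.19, standard error 0.057, lost in 13 of 16 other settings).

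Corepressors and cofactors of the members were tested in full, 16 of 16 in each line. There was 1 rise in AMO1 and 4 under the H929 label, and 1 gene fell under the LP1 label, with medians of 0.026, 0.092 and -0.04. With 1 library left out the calls were 1 to 2, 2 to 4 and 0 to 2. HDAC4, a class IIa histone deacetylase that binds MEF2 factors, rose with NEAT1 from 41.5 ± 2.40 to 57.5 ± 3.09 CPM in AMO1 (log2 fold change 0.48, standard error 0.067, edgeR adjusted p = 0.000166) and from 37.0 ± 1.24 to 55.0 ± 3.22 CPM under the H929 label (0.56, standard error 0.056, edgeR adjusted p = 4.79e-08). Both calls held in all 16 other settings. TLE1 (0.27) and the BCL6 corepressor BCOR (0.19) also rose under the H929 label, with calls lost in 8 and 6 of 16 other settings. HDAC9 fell under the LP1 label (-0.31, standard error 0.058, edgeR adjusted p = 0.00823, lost in 2 of 16).

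The cereblon ligase that acts on IKZF1 and IKZF3 was measured through 5 subunits. Under the H929 label CUL4A rose (0.19, standard error 0.046, edgeR adjusted p = 0.0112, lost in 3 of 16 other settings) and CUL4B fell (-0.19, standard error 0.050, edgeR adjusted p = 0.0218, lost in 5), and with 1 library left out 0 to 2 of the 5 passed. In AMO1 0 of 5 changed with edgeR (1 at an unadjusted p under 0.05, against those 2803 of 22933 genes, 0 with limma-voom, 1 with DESeq2 and 1 with the replicate letter as a block), and under the LP1 label 0 of 5 (0 at an unadjusted p under 0.05 and 0 with either of the other tools).

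The plasma cell programme, 20 genes, had 19 tested in each line. In AMO1 1 rose (5 changed with the block), under the H929 label 4 rose and 2 fell, and under the LP1 label 1 rose, with medians of 0.077, 0.086 and 0.014. The 6 calls under the H929 label were 5 with limma-voom and 7 with DESeq2, and 3 to 5 with any 1 library left out. ZBTB20, which encodes a zinc finger transcription factor, rose in AMO1 (0.52, standard error 0.084, edgeR adjusted p = 0.000794) and under the H929 label (0.38, standard error 0.089, edgeR adjusted p = 0.00735, lost in 2 of 16 other settings). SDC1 rose under the H929 label from 11900 ± 413 to 13960 ± 625 CPM (0.22, standard error 0.057, edgeR adjusted p = 0.0196, lost in 6 of 16 other settings), as did CREB3L2 (0.21) and DERL3 (0.22, lost in 4), while CD38 fell (-0.21, standard error 0.046, edgeR adjusted p = 0.00406). CAV1, which encodes caveolin-1, was the other gene that fell there, named after its values were seen. PIM2, a kinase of myeloma growth, rose under the LP1 label (0.30, standard error 0.051, edgeR adjusted p = 0.00323).

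Of 25 genes of the B cell programme, 16 were tested in AMO1, 16 under the H929 label and 20 under the LP1 label, and 4, 3 and 3 had no read in any of the 6 libraries of the line. BLNK, the B cell linker adaptor, fell under the H929 label from 5.29 ± 0.478 to 3.38 ± 0.593 CPM (-0.66, standard error 0.13, edgeR adjusted p = 0.00193, kept in all 16 other settings) and was the only call of this list there (1 to 2 with 1 library left out). In AMO1 and under the LP1 label 0 changed with edgeR (4 and 2 at an unadjusted p under 0.05, where 2803 of 22933 and 3018 of 23165 genes were, 0 with limma-voom and 0 with DESeq2 in both), and 2 changed in AMO1 with the block.

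Paralogs of the members were led by IRF7, the interferon regulatory factor of the type I interferon response. It fell against NEAT1 in AMO1 from 3.57 ± 0.667 to 2.13 ± 0.366 CPM (-0.72, standard error 0.18, edgeR adjusted p = 0.0369, lost in 5 of 16 other settings), under the H929 label from 4.76 ± 0.544 to 2.60 ± 0.548 CPM (-0.89, standard error 0.15, edgeR adjusted p = 0.000151, kept in all 16) and under the LP1 label from 19.8 ± 3.21 to 14.6 ± 0.462 CPM (-0.42, standard error 0.093, edgeR adjusted p = 0.0269, lost in 8 of 16). IRF1 fell under the H929 label (-0.31, standard error 0.066, edgeR adjusted p = 0.00335). Of 20 paralogs, 15, 15 and 17 were tested and 1, 2 and 1 fell, while none rose, and 3 changed in AMO1 with the block. With 1 library left out the calls were 0 to 2, 2 to 3 and 0 to 2.

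The genes most like each factor over the 18 libraries were sought among 13853 genes by Pearson's r of log2(CPM + 0.5), as a description. Since the libraries fall into lines, r mostly follows the level of the lines. For SPIB they were RTL5 (0.998), IRAG2 (0.998) and MSC (0.998), and for PRDM1 they were AMPD1 (0.999), PTK2B (0.998) and SETBP1 (0.998). IKZF3 was most like PHACTR1, M6PR and GOLPH3L (0.998, 0.997 and 0.997), IKZF1 like SLC38A5, RNF40 and TRRAP (0.991, 0.991 and 0.990), MEF2C like WDR26, EIF2AK3 and MLLT3 (0.993, 0.992 and 0.992) and IRF4 like ZNF275, HYKK and MCC (0.982, 0.978 and 0.977). BACH2, whose level hardly differed between lines, was most like TBL1X (0.913), CREB3L2 (0.876) and HDAC4 (0.825), and HSF4 (0.924) was among the genes most like POU2AF1. PAX5 and BCL6 were too scarce for this search.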

How the data were processed

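Values were the counts the authors deposited for 18 libraries, raw and per gene. Per labels and methods, they prepared stranded total RNA libraries, aligned reads to hg38 with STAR 2.7.10a and counted read pairs by strand with featureCounts 1.6.4 on GENCODE release 43, without normalization. Symbols were matched to 62639 of 62703 identifiers. Libraries were grouped by their labels. CPM and RPKM were computed here with TMM-scaled library sizes and the exon lengths of the tables. Each line was fitted in edgeR 4.0.16 (R 4.3.3; TMM, robust quasi-likelihood test, Benjamini-Hochberg adjustment over all genes, threshold 0.05) on genes that reached 10 reads in any of its 6 libraries; levels between lines and interactions came from a joint fit of 18 libraries. The fit was also run on simulated data, and the outcome of that run is not given here. Alternatives were limma-voom (limma 3.58.1), DESeq2 1.42.0, library totals alone, RLE size factors, no filter, 10 reads in 3 libraries, the replicate letter as a block, a genomic span offset, both, the joint fit, and each library left out; a replicate block in the joint fit, in AMO1 or within each line, was chosen after seeing the data.

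Genes named outside the 10 factors were, for each list and line, up to 5 called genes with the largest change and an average log2 CPM of at least 0, NEAT1, and the 3 genes most like each factor, and cell type markers; CAV1 was named after its values were seen. The factors and lists were chosen with earlier results of these data known; the TATA box was added after the start windows were read. Deviations from the group mean of libraries with the same letter had r = 0.215, 0.187 and 0.121 for A, C and D in AMO1. Under the H929 and LP1 labels r ran from -0.116 to 0.175. Libraries of different letters were not compared, so these values do not settle whether a letter marks a pair. Python 3.11.15 with pandas 2.3.3, numpy 2.4.6, scipy 1.17.1 and matplotlib 3.10.9 was used. The interval and floor of PAX5 cover counting error only.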

Additional observations from a re-analysis of the deposited data

Results flagged for a closer look

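The label difference of MEF2C differed between lines by the test of the difference itself. It was higher in AMO1 than under the LP1 label by 0.3167 and higher under the H929 label than under the LP1 label by 0.2596, both on the log2 scale. The label difference of POU2AF1 was lower in AMO1 than under the LP1 label (-0.2501 on the log2 scale). Of the other settings, MEF2C for AMO1 minus LP1 kept its call in 25 and lost it in 1. MEF2C for H929 minus LP1 kept it in 10 and lost it in 16, and POU2AF1 kept it in 11 and lost it in 15. For both genes the gN1E libraries lay wholly on one side of the SCR libraries in AMO1 and wholly on the other side under the LP1 label. These are the same libraries that the tests used, so this describes the result and adds no further test.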

How the results depend on the processing

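Over 1725 values of named genes under other settings, 1569 kept their direction and their side of the threshold, 128 lost a call, 17 gained one and 11 changed sign, none of these 11 with a call. In AMO1 the number of members called was 0 with library size only and 0 with the genomic span offset. It was 2 with the replicate block, 2 with both, and 0 to 1 with 1 library left out. Of 22933 genes, 604, 418, 1394 and 1205 were called in the same order of settings, against 473 in the main fit. Under the H929 label it was 1 with limma-voom, library size only, the replicate block, the genomic span offset and the offset with the block. It was 3 there with DESeq2, and 1 to 2 with 1 library left out. Of 23499 genes, 998, 1299, 931, 1222, 860 and 1317 were called in the same order of settings, against 1286 in the main fit. Under the LP1 label it was 1 with limma-voom, DESeq2 and library size only. Of 23165 genes, 262, 512 and 359 were called in these settings, against 332 in the main fit. Of the members between lines, AMO1 minus H929 gave 0 to 1 with 1 library left out, where 2571 to 2699 of all genes passed. The 1 was PAX5, at too few reads to compare these lines. The members with an interaction called between AMO1 and the LP1 label were 1 with RLE size factors and 1 with library size only. They were 3 with DESeq2, and 1 to 2 with 1 library left out. Of 26436 genes, 217, 148 and 521 were called in the same order of settings, against 196 in the main fit. With 1 library left out, 122 to 218 genes were called. Between the H929 and LP1 labels the members called were 2 with DESeq2 and 2 with a replicate block in AMO1. They were 0 with RLE size factors, library size only and no filter, and 0 to 2 with 1 library left out. In the same order, 383, 345, 192 and 156 of 26436 genes were called, and 368 of 43774 with no filter, against 231 in the main fit. With 1 library left out, 140 to 284 genes were called there.

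The sign of IKZF3 in AMO1 turned to 0.003304 with DESeq2 and 0.003331 with RLE size factors, and ran from -0.01043 to 0.02156 with 1 library left out. With library size only, the log2 fold change turned to -0.02498 for IRF4 and -0.01218 for POU2AF1 under the H929 label and to 0.004803 for IKZF1 under the LP1 label. With 1 library left out, IRF4 under the H929 label ran from -0.01003 to 0.05102 and SPIB under the LP1 label from -0.2573 to 0.2313, and the interaction of BACH2, AMO1 minus H929, from -0.06764 to 0.003337. The cause was not tested.

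Apart from POU2AF1 in AMO1 and the list counts given for AMO1, the replicate block changed no call of a member there. Whether the letters mark pairs was not settled (same-letter r from -0.116 to 0.175 under the H929 and LP1 labels, and from 0.121 to 0.215 in AMO1). The block gave 931 and 243 genes in place of 1286 and 332 under the H929 and LP1 labels, and in AMO1 1394 in place of 473. Single libraries moved the number of genes called from 254 to 606 in AMO1, from 701 to 1272 under the H929 label and from 87 to 780 under the LP1 label. Depth limited BCL6 and, under the LP1 label, SPIB, whose 95% intervals reached a 2-fold change on at least one side, and PAX5, which could not be tested in AMO1 or under the H929 label.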
